A study of Mus musculus with 24 samples.

Results

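Expression of the core circadian clock genes was examined in uninjured carotid arteries of ovariectomized mice. The 10 genes were taken by name: Arntl and Clock, which encode the activators, the period genes Per1, Per2 and Per3, the cryptochrome genes Cry1 and Cry2, the nuclear receptor genes Nr1d1 and Nr1d2, and the output gene Dbp. They are 10 of the 55421 genes listed in the count tables, and all 10 passed the filter on low counts that left 25033 genes for testing. Bulk RNA sequencing was available for 24 libraries, 6 in each of 4 groups. All mice were ovariectomized C57BL/6 females aged 9 weeks, and the series' design text gives 3 weeks of treatment where the study's methods give a shorter one. OVX mice received placebo and are called vehicle here. E2 mice received estradiol, the main ovarian estrogen. E4 mice received estetrol, a fetal estrogen with additional hydroxyl groups, and TAM mice received tamoxifen, a synthetic modulator of the estrogen receptors. The E4 libraries are named so only in their titles, because their treatment field reads placebo. The tamoxifen group is not described in the study's text. The labels give no doses, and the study's methods describe pellets with unlike amounts of E2 and E4, set with the aim of a like estrogenic effect on the uterus, so the groups are compared as treatments and not at matched doses. The time of day of tissue collection is not given in the sources used here.

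The clock is a feedback loop that runs in nearly every cell, arterial cells included. The proteins of Arntl and Clock pair on E-box sequences and switch on the period and cryptochrome genes, whose proteins then return to the nucleus and block the pair. In a second loop, Nr1d1 and Nr1d2 repress Arntl through ROR elements, and Dbp acts through D-box sequences on genes such as the period genes. Transcripts of Arntl therefore peak in mouse tissues at about the opposite time of day to those of Dbp, Nr1d1 and Per3. A library taken at 1 time point holds 1 phase of this cycle.

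RefSeq promoter windows of GRCm38.p6, with 250 bases before and 50 after an annotated start, were available for 9 of the 10 genes in 13 windows, and Per2 has no entry. Both strands were searched for an E-box (CACGTG), a variant E-box (CACGTT), a D-box (TTATGTAA), the ROR elements TAGGTCA and TGGGTCA, a cyclic AMP response element (TGACGTCA) and the palindromic estrogen response element. Windows of Cry1 and Per1 held CACGTG, which 7.15% of all 32851 windows hold. Windows of Cry1, Cry2 and Nr1d1 held CACGTT, present in 4.68% of all windows. Per3 held TTATGTAA at 2 places and Arntl held TAGGTCA, against 0.938% and 2.61% of all windows. None of the 13 windows held TGGGTCA, TGACGTCA or the palindromic estrogen response element, which 3.98%, 1.79% and 0.07% of all windows hold. The Arntl, Per1, Per3 and Cry1 stretches are printed 5′ to 3′ on the strand of the gene, with the matched letters in capitals, because they show the elements of the loop in the genes described next. They lie at chr7:113207529-113207558 (plus strand, with the match 30 bases after a start of Arntl), chr11:69098699-69098948 (plus strand, before a start of Per1), chr4:151044666-151044915 (minus strand, before the start of Per3) and chr10:85185055-85185304 (minus strand, before the start of Cry1). In Cry1 the letters AACGTG are CACGTT read on the other strand. A match is a description of letters and not of binding.
Arntl: gaaggcagaaagTAGGTCAgggacggaggt
Per1: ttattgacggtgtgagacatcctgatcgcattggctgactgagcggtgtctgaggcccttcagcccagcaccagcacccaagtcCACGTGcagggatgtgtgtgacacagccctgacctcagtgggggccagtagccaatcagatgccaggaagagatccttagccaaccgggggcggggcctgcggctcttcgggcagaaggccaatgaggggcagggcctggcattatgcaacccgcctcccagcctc
Per3: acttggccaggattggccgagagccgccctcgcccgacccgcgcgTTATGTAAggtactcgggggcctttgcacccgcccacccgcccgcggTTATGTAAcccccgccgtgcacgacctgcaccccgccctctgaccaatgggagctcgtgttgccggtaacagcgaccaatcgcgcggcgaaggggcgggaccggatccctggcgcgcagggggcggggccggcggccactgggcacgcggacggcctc
Cry1: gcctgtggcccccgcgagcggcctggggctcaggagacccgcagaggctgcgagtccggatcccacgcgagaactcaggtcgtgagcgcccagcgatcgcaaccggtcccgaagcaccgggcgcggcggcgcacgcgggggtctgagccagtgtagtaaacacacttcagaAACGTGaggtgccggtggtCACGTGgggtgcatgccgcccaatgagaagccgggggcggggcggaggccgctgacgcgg

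Library totals ranged from 24647246 to 64221401 estimated counts, with a median of 45156106, and the lowest belonged to E4 library C38. Levels are in CPM, which divides a gene's count by the TMM-scaled size of its library. As labelled, the tissue expressed smooth muscle markers (Acta2 group means of 1313 to 1790 CPM), endothelial markers (Pecam1, 250.4 to 307.7 CPM) and adventitial fibroblast markers (Dcn, 1689 to 2249 CPM). Vehicle C5 and tamoxifen C35 stood apart from the other libraries. Their summed levels of 6 sympathetic ganglion markers were 32.2 and 171 CPM, against 1755 to 6909 CPM in the other libraries. Smooth muscle markers summed to 7963 CPM in tamoxifen C35, and member calls that change without both are given without them. The numbers in the library titles fell in 2 series, C2 to C20 and C24 to C39, and the labels do not say whether these are batches. In bulk tissue, fewer cells of a type and less RNA per cell cannot be told apart. Nothing in the labels says whether a library is 1 mouse, so p-values measure the spread between libraries.

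Per kilobase of exon, the vehicle group ranked the 10 genes from Nr1d1 (31.96 CPM per kb) and Nr1d2 (25.1) through Dbp (15.6), Per1 (12.6), Cry2 (11.3), Per3 (9.66), Clock (6.65) and Per2 (5.61) to Arntl (2.38) and Cry1 (1.72). No test was made between genes. Exons of 4 members overlap a gene on the opposite strand, namely Arntl (33 bases, with Gm45355), Cry2 (295, with D930015M05Rik), Nr1d1 (263, with Thra) and Dbp (539, with Sphk2). These 4 were the only members with fractional counts, in 8 to 12 of the 24 libraries, and the other 6 members had none in any library. Reads in the overlaps cannot be assigned to 1 gene with certainty.

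The estimated differences of the clock genes between treatments were less than 2-fold, with Dbp in tamoxifen against E2 as the exception. Ranges of 2 SE on either side of some other log2 differences reached beyond 2-fold. Examples are Dbp in E2 against vehicle (-1.68 to -0.26) and Per1 in tamoxifen against E2 (0.47 to 1.34). At the study's threshold (adjusted p under 0.05 and a log2 fold change beyond 1 in either direction, by the quasi-likelihood test of edgeR, adjusted over all tested genes by Benjamini-Hochberg), 0 of 10 members were called in E2 against vehicle, E4 against vehicle, tamoxifen against vehicle, E4 against E2 and tamoxifen against E4. Over all tested genes 1.27%, 2.51%, 0.308%, 2.47% and 0.196% were called in these comparisons. In tamoxifen against E2, 1 member was called, and 1.65% of all tested genes. Comparisons with the same control share its libraries and are not independent of each other. Without the fold threshold, a test of any difference among the 4 groups passed for 4 of 10 members, Clock (adjusted p = 0.000657), Nr1d1 (0.0145), Per1 (0.0174) and Cry2 (0.0239), where 21.0% of all tested genes passed. This count was 3 without E2 C9 or without E2 C26 and 6 without E2 C8. In the same fits and order, 1794, 2851 and 1436 of all tested genes passed an adjusted p under 0.05 in E4 against E2. With all libraries 3134 did.

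**Figure D1:**
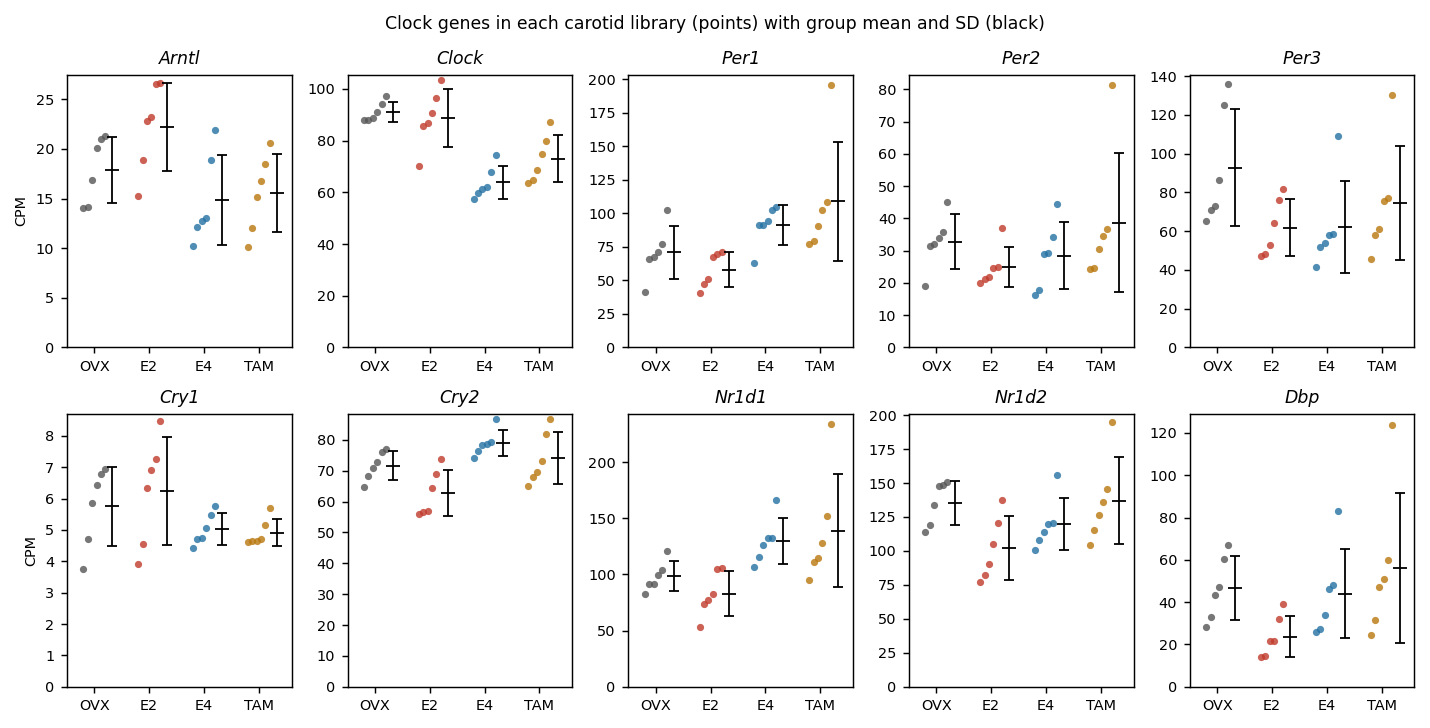
Each panel plots the CPM of a clock gene (vertical axis, from 0) in the 6 libraries of each group (points), with the group mean and SD in black. The 6 E4 points of Clock lie between 57.4 and 74.6 CPM and all vehicle points between 87.9 and 97.4 CPM, while a single tamoxifen library reaches 123.6 CPM for Dbp.

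Clock was lower with E4. Its product is the partner of the Arntl protein and is expressed at a steady level over the day in many tissues. In vehicle libraries Clock ranged from 87.9 to 97.4 CPM with a median of 90.0, and in E2 libraries from 70.4 to 103.3 with a median of 88.7. In E4 libraries it ranged from 57.4 to 74.6 CPM with a median of 61.7, and in tamoxifen libraries from 63.7 to 87.1 with a median of 71.7. The E4 and vehicle libraries did not overlap, as in 9.37% of all tested genes, whereas the E2 libraries spanned the vehicle range. Clock fell by 0.51 ± 0.09 (SE) on the log2 scale in E4 against vehicle (adjusted p = 0.000714, edgeR) and was the 1 of 10 members at an adjusted p under 0.05, where 22.0% of all tested genes were, 12.5% with lower expression. At an unadjusted p under 0.05 there were 3 members and 36.3% of all tested genes. The count of 1 became 2 without E4 C16 (Per3, adjusted p = 0.021), without tamoxifen C35 (Nr1d1, 0.0392) and without vehicle C5 and tamoxifen C35 (Nr1d1, 0.0242), where 5096, 6391 and 5600 of all tested genes passed, against 5514. With only the E4 and vehicle libraries it was also 2 (Nr1d1, 0.0286), with 4403 genes. Against E2 it fell by 0.48 ± 0.09 (adjusted p = 0.0014). Both calls held when any 1 of the 24 libraries was left out and without vehicle C5 and tamoxifen C35. The log2 differences between E4 and vehicle were -0.62 within the first number series (adjusted p = 0.009) and -0.41 within the second (0.304), where only 2 vehicle libraries remain. Between E4 and E2 they were -0.70 (0.00442) and -0.23 (0.799). Markers of B cells moved with this comparison, 6 of 6 of them lower in E4 than in vehicle, with summed levels of 3.16 to 7.21 against 5.33 to 35.4 CPM and none at 0. Adventitial fibroblast markers were lower for 6 of 6 genes, 4 of them at an adjusted p under 0.05, with a median log2 difference of -0.61 and summed levels of 2538 to 4128 CPM in E4 against 3729 to 5725 CPM in vehicle libraries. Of 6 adipocyte markers, 3 were lower at an adjusted p under 0.05. The 6 ganglion markers were higher for 6 of 6 genes, with a median log2 difference of 0.97, and 0 passed with edgeR, with 1 at an unadjusted p under 0.05. The part of the fibroblast and adipocyte markers in the Clock result was not tested. With the mean of the B cell markers as a covariate, Clock differed by -0.59 between E4 and vehicle (adjusted p = 0.0376), and with that of the ganglion markers by -0.50 (0.00156). With these covariates 102 and 4569 of all tested genes passed in E4 against vehicle, against 5514 without a covariate.

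Clock in tamoxifen libraries also lay below every vehicle library, by a small margin (87.1 against 87.9 CPM), and 2.58% of all tested genes had no overlap between these groups. The log2 difference was -0.32 ± 0.09 (adjusted p = 0.0529, edgeR), which missed the threshold, and 0 of 10 members passed in tamoxifen against vehicle, where 2.21% of all tested genes did. At an unadjusted p under 0.05 there were 3 members, Clock, Per1 and Nr1d1, and 21.0% of all tested genes. With DESeq2, 1 member passed in this comparison, Clock (adjusted p = 0.0194), and 1593 genes passed against 553 with edgeR. Clock passed with edgeR without E2 C8, E2 C29, tamoxifen C32 or E4 C38 (adjusted p of 0.0331 to 0.0489) and with the mean of the ganglion markers as a covariate (0.041), where 3 members and 1466 genes passed. In other fits with edgeR, the adjusted p of Clock was 0.118 without vehicle C5 and tamoxifen C35, 0.0949 and 0.778 within the first and second number series, and 0.285 with the mean of the B cell markers as a covariate. With that covariate 15 of all tested genes passed, against 553.

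Arntl, the dedicated partner of Clock and the member without which the loop stops, was lowest with E4 and highest with E2 by median. It ranged from 14.1 to 21.3 CPM in vehicle libraries (median 18.5), from 15.3 to 26.6 in E2 libraries (median 23.0), from 10.2 to 21.9 in E4 libraries (median 12.9) and from 10.2 to 20.6 in tamoxifen libraries (median 15.9). All 4 ranges overlapped. Arntl was lower in E4 than in E2 by 0.58 ± 0.19 on the log2 scale, with an adjusted p of 0.0475 (edgeR) that lies just under the threshold. Leaving out 1 library raised it above 0.05 in 16 of 24 cases, with adjusted p-values between 0.051 and 0.103 in these cases. The libraries were vehicle C2, C4, C24 and C25, E2 C6, C9, C26, C27 and C29, tamoxifen C11, C12 and C33, and E4 C16, C19, C20 and C36. The difference was -0.70 within the first series (adjusted p = 0.0461) and -0.49 within the second (0.773), where the call was lost.

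Of the repressors, Cry2 and Nr1d1 were higher in E4 than in E2, and no library of either group entered the range of the other. Cry2, a cryptochrome that blocks the Arntl and Clock pair, ranged from 56.1 to 73.9 CPM with E2 (median 60.6) and from 74.2 to 86.7 CPM with E4 (median 78.5). Vehicle libraries lay between 64.7 and 77.0 CPM (median 71.9) and tamoxifen libraries between 65.0 and 86.8 CPM (median 71.3). By median, Cry2 was thus at its lowest with E2 and its highest with E4, with the vehicle range bridging both, while the highest single library was tamoxifen C35. Against vehicle neither E2 (adjusted p = 0.212, edgeR) nor E4 (0.206) passed. It rose by 0.33 ± 0.08 on the log2 scale in E4 against E2 (adjusted p = 0.0103, edgeR) and passed without any 1 of the 24 libraries. The difference was 0.43 within the first number series (adjusted p = 0.0306) and 0.25 within the second (0.767), where the call was lost.

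Nr1d1, the nuclear receptor REV-ERB alpha that represses Arntl, ranged from 53.2 to 105.9 CPM with E2 (median 79.9) and from 106.5 to 166 CPM with E4 (median 129.2). In vehicle libraries it ranged from 82.4 to 121 CPM (median 95.8), and in tamoxifen libraries from 95.3 to 234 CPM (median 121.2). The E2 and E4 libraries were separated by a small margin (105.9 against 106.5 CPM). Nr1d1 rose by 0.65 ± 0.18 on the log2 scale in E4 against E2 (adjusted p = 0.0246, edgeR), and the adjusted p rose to between 0.0515 and 0.0585 without E2 C8, E2 C9, E2 C26 or E4 C16. The within-series differences were 0.61 (adjusted p = 0.0511) and 0.70 (0.631), so the call was lost in both. In all, 4 of 10 members passed in E4 against E2, Clock and Arntl with lower and Cry2 and Nr1d1 with higher expression, where 12.5% of all tested genes passed, 3.55% with higher and 8.97% with lower expression. The count of 4 was 2 without E2 C9, E2 C26 or E4 C16, where 1794, 2851 and 2645 of all tested genes passed, and 6 without tamoxifen C35, where 3791 did, against 3134 with all libraries. At an unadjusted p under 0.05 there were 6 members and 30.2% of all tested genes. Groups did not overlap for 2 of 10 members and for 6.17% of all tested genes. Macrophage markers were lower in E4 than in E2 for 6 of 6 genes (summed levels of 337.2 to 615.7 against 772.5 to 1199 CPM), as were 6 of 6 T cell markers (2.60 to 7.04 against 3.97 to 304.2 CPM), where E2 C9 alone was at 304.2 and the other 5 E2 libraries at 3.97 to 23.4 CPM. Adventitial fibroblast markers were lower for 6 of 6 genes, 4 at an adjusted p under 0.05, with a median log2 difference of -0.55. The part of these lists in the results was not tested.

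The remaining members did not pass in E4 against E2, and the ranges of 2 SE on either side of their log2 differences were wide. For Per3 the difference was 0.01 (-0.49 to 0.51), for Per2 0.19 (-0.36 to 0.75), for Nr1d2 0.23 (-0.07 to 0.53) and for Cry1 -0.31 (-0.64 to 0.01). Values within these ranges are not excluded. Per1 (0.65 ± 0.22, adjusted p = 0.051, edgeR) and Dbp (0.89 ± 0.35, adjusted p = 0.0945) missed the threshold, and without vehicle C5 and tamoxifen C35 both passed (adjusted p = 0.0102 and 0.0278), so that 6 of 10 members did, while the count over all tested genes rose from 3134 to 6467.

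**Figure D2:**
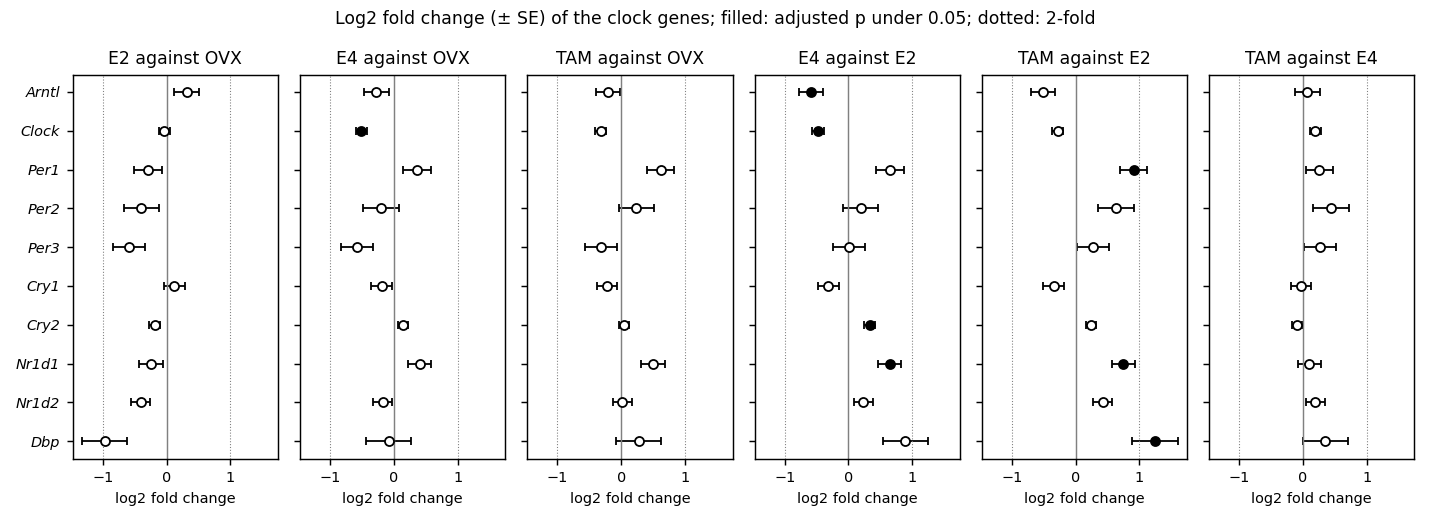
Log2 fold changes (horizontal axes) of the 10 clock genes (rows) in each of the 6 comparisons, with SE bars, filled where the adjusted p was under 0.05, and dotted lines at 2-fold. Filled points are Clock in E4 against vehicle, 4 genes in E4 against E2 and 3 genes in tamoxifen against E2.

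Among the 10 members and over all 24 libraries, tamoxifen against E2 gave the 1 called difference beyond 2-fold. Dbp, an output transcription factor with a wide daily swing, ranged from 13.9 to 38.9 CPM in E2 libraries (median 21.5) and from 24.6 to 123.6 CPM in tamoxifen libraries (median 48.9). Vehicle libraries lay between 28.5 and 67.2 CPM (median 45.3) and E4 libraries between 25.98 and 83.0 CPM (median 39.9). The E2 median was thus the lowest, all groups overlapped, and the other 5 tamoxifen libraries lay at or below 60.1 CPM. Dbp rose by 1.24 ± 0.36 on the log2 scale in tamoxifen against E2 (adjusted p = 0.0369, edgeR). The call was lost without any 1 of 7 libraries, E2 C9, C26, C27 and C29 and tamoxifen C12, C13 and C35, with adjusted p-values between 0.0533 and 0.0967. Without tamoxifen C35 the difference was 0.86, and the within-series differences were 0.55 in the first series (adjusted p = 0.374) and 2.03 in the second (0.127), which holds C35, so the call was lost in both.

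Per1 and Nr1d1 were also higher in tamoxifen than in E2. Per1, the period gene that also responds directly to glucocorticoids and cyclic AMP, ranged from 40.7 to 71.4 CPM in E2 libraries (median 59.3) and from 77.0 to 195.7 CPM in tamoxifen libraries (median 96.4), without overlap, as in 4.24% of all tested genes. In vehicle libraries Per1 ranged from 41.1 to 102.6 CPM (median 69.4) and in E4 libraries from 62.7 to 104.6 CPM (median 92.7). The difference between tamoxifen and E2 was 0.91 ± 0.22 on the log2 scale (adjusted p = 0.0127, edgeR) and 0.66 without tamoxifen C35 (0.0262). For Nr1d1 it was 0.75 ± 0.18 (adjusted p = 0.0155) and 0.54 without tamoxifen C35 (0.0311). With only the tamoxifen and E2 libraries in the fit, Per1 passed (adjusted p = 0.0481), Nr1d1 (0.0836) and Dbp (0.0852) did not, and 1172 of all tested genes passed, against 1612. Within the number series the values were 0.42 and 1.36 for Per1 and 0.35 and 1.10 for Nr1d1, and none of these passed by itself. In all, 3 of 10 members passed in tamoxifen against E2, all of them higher, where 6.44% of all tested genes passed, 1.93% with higher expression. At an unadjusted p under 0.05 there were 9 members and 21.2% of all tested genes. Without vehicle C5 and tamoxifen C35, 2 members passed, while the count over all tested genes rose from 1612 to 3335. All 6 macrophage markers were lower in tamoxifen than in E2 (421.4 to 607.4 against 772.5 to 1199 CPM summed). Smooth muscle markers were higher for 6 of 6 genes, 2 at an adjusted p under 0.05 and 1 without vehicle C5 and tamoxifen C35, with summed levels of 2849 to 7963 against 2601 to 3618 CPM, and their mean had r of 0.68 with Per1 over the 24 libraries. The part of both lists was not tested.

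A list of glucocorticoid response genes is given beside Per1. Of its 12 genes, 4 rose in tamoxifen against E2 (Zbtb16, Sgk1, Klf9 and Ddit4), where 1.93% of all tested genes were higher, and 6 in E4 against E2, these 4 with Fkbp5 and Mt2, where 3.55% were higher. The remaining genes of the list did not pass in these comparisons. Against vehicle, 3 rose with tamoxifen, where 323 of the 25033 tested genes rose. With E4, 6 rose and 1 fell (Dusp1, log2 difference -1.16), where 2384 of all tested genes rose and 3130 fell. Zbtb16, a transcription factor induced by glucocorticoids, rose against E2 by 1.48 in tamoxifen and by 1.98 in E4 on the log2 scale. Against vehicle the values were 1.65 and 2.16. Summed over the list, levels were 1002 to 1939 CPM with E2, 1627 to 2102 CPM with E4, 1254 to 2321 CPM with tamoxifen and 976.9 to 1922 CPM with vehicle. Over the 24 libraries, with group means subtracted, the mean of the list had r of 0.74 with Per1 and between -0.15 and 0.31 with the other members. Per1 also had r of 0.82 with the mean of the output genes and 0.68 with that of the smooth muscle markers. It was 0.57 for the endothelial and 0.53 for the adventitial fibroblast markers. The part of the glucocorticoid list in the Per1 result was not tested.

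In E2 against vehicle, 0 of 10 members passed an adjusted p of 0.05 with edgeR, where 4.16% of all tested genes did, and 0 passed with DESeq2. At an unadjusted p under 0.05 there were 4 members and 16.05% of all tested genes. The 4 were Dbp (log2 difference -0.97 ± 0.35), Per3 (-0.59 ± 0.25), Nr1d2 (-0.41 ± 0.15) and Cry2 (-0.19 ± 0.08). With the mean of the B cell markers as a covariate, Dbp was at -0.49, Per3 at -0.19 and Nr1d2 at -0.24. Nr1d2 was at -0.13 within the first number series and -0.77 within the second. All 6 macrophage markers were higher with E2 than with vehicle at an adjusted p under 0.05, and their part was not tested. Nr1d2, the second REV-ERB gene, ranged from 113.7 to 150.6 CPM in vehicle libraries (median 140.7), from 76.9 to 137.8 with E2 (median 98.0), from 100.7 to 155.7 with E4 (median 117.0) and from 104.5 to 195.1 with tamoxifen (median 131.0). Per3, a period gene that is dispensable for the loop, ranged from 65.2 to 136 CPM in vehicle libraries (median 79.7), from 47.2 to 81.7 with E2 (median 58.7), from 41.8 to 109.1 with E4 (median 56.1) and from 45.5 to 130.1 with tamoxifen (median 68.3). The levels of both overlapped between all groups. In tamoxifen against E4, 0 of 10 members passed with edgeR and with DESeq2, 0.340% of all tested genes did, and Clock was the member at an unadjusted p under 0.05 (log2 difference 0.19 ± 0.09), against 9.12% of all tested genes.

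Per2 and Cry1 had no unadjusted p under 0.05 in any comparison with vehicle. Per2, a period gene needed for a stable rhythm, had medians of 32.9 CPM with vehicle, 23.2 with E2, 29.1 with E4 and 32.6 with tamoxifen, and its libraries spanned 16.3 to 81.4 CPM. Cry1, the other cryptochrome, was the weakest member, with medians of 6.15, 6.63, 4.91 and 4.70 CPM in the same order and counts of 142 to 389 per library.

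Further clock genes were taken from 2 lists. Of 16 partners and regulators, 1 rose in E2 against vehicle, 2 rose and 2 fell in E4 against vehicle, and 0 passed in tamoxifen against vehicle, where 4.16%, 22.0% and 2.21% of all tested genes passed. In E4 against E2, 3 of 16 passed and in tamoxifen against E2, 2 of 16, where 12.5% and 6.44% of all tested genes did. Without vehicle C5 and tamoxifen C35, a fit added after the values were seen, 10 of 16 passed in E4 against E2, where the genes called rose from 3134 to 6467. Nfil3, a repressor that competes with Dbp at D-boxes, rose with E2 (log2 difference 0.94 ± 0.26, adjusted p = 0.04, edgeR) and was lower in E4 (-0.87) and in tamoxifen (-0.96) than in E2. It averaged 22.4 ± 4.30 CPM (SD, n = 6) with E2 and between 11.5 and 12.3 CPM in the other 3 groups. With E4 against vehicle, Arntl2 (-0.63 ± 0.12) and Rora (-0.42 ± 0.10), a paralog of Arntl and an activator of Arntl, fell, and Csnk1d (0.38 ± 0.09) and Fbxw11 (0.37 ± 0.13), which phosphorylate and degrade period proteins, rose, the latter with an adjusted p of 0.0608 without both libraries. In E4 against E2, Npas2, which can stand in for Clock, fell by 1.25 ± 0.27 on the log2 scale (adjusted p = 0.00557), from 13.2 ± 2.24 to 5.53 ± 2.99 CPM (SD, n = 6 each), and Csnk1d rose. In tamoxifen against E2, Bhlhe41, a repressor at E-boxes, rose (0.78 ± 0.22), and without both libraries it was at 0.56 (adjusted p = 0.0622). The median log2 difference of this list was between -0.04 and 0.25 in the 5 comparisons with vehicle or E2, against -0.01 to 0.01 over all tested genes.

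Of 8 output genes, Wee1, a cell cycle kinase gene with E-boxes, rose in E4 against vehicle (log2 difference 0.59 ± 0.18), tamoxifen against vehicle (0.78 ± 0.18), E4 against E2 (0.63 ± 0.18) and tamoxifen against E2 (0.82 ± 0.18). Tef, a relative of Dbp, and Tsc22d3, which glucocorticoids also induce, rose in tamoxifen against E2 (0.42 ± 0.12 and 0.64 ± 0.18), so that 3 of 8 did, where 1.93% of all tested genes were higher. Without vehicle C5 and tamoxifen C35, Tef was at 0.32 (adjusted p = 0.0568), and Wee1 in tamoxifen against vehicle at 0.61 (0.0659), while Wee1 passed in the other 3 comparisons. Tef (0.033) and Tsc22d3 (0.0329) were added in E4 against E2 and Usp2 (0.0291) in E4 against vehicle. Of this list 0 passed in E2 against vehicle, with 1 at an unadjusted p under 0.05, where 4.16% and 16.05% of all tested genes were.

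Libraries of the same group also differed in the members. Within groups the SD of log2 CPM was largest for Dbp (0.64), followed by Per2 (0.50), Per3 (0.45), Per1 (0.39), Arntl (0.35), Nr1d1 (0.33), Cry1 (0.29) and Nr1d2 (0.27). Clock (0.15) and Cry2 (0.13) varied least. The SD of Dbp lay at the 86.1st percentile of all tested genes and that of Cry2 at the 13.7th.

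This variation was shared. After the mean of each group was subtracted from log2 CPM, libraries with high Arntl had low Dbp, Per3, Per2 and Nr1d2. Over the 24 libraries, Pearson's r with Arntl was -0.87 for Dbp, with a permutation p of 1e-05, the smallest that 100000 permutations of libraries within groups can give, and an adjusted p of 3e-05 over the 9 relations tested. For Per3 r was -0.86, for Per2 -0.82 and for Nr1d2 -0.75, with adjusted permutation p-values of 3e-05, 3e-05 and 0.00018. Spearman's rho was -0.86, -0.86, -0.79 and -0.72 in that order (adjusted permutation p = 4.5e-05, 4.5e-05, 0.00015 and 0.00072). The relations held without the 2 libraries farthest from the median of Arntl, tamoxifen C35 and E4 C39, with r of -0.86 for Dbp, -0.82 for Per3, -0.78 for Per2 and -0.70 for Nr1d2. They also held without vehicle C5 and tamoxifen C35, where r lay between -0.84 and -0.69. Within the first number series r was -0.82 for Dbp, -0.85 for Per3, -0.77 for Per2 and -0.81 for Nr1d2, and within the second series -0.96, -0.91, -0.92 and -0.90. Each passed within each series (adjusted permutation p of 0.0073 to 0.023), except Per2 in the second (0.097). Marker lists of other tissues moved along the same axis over the 24 libraries. The mean of the thyroid markers had r of 0.70 with Arntl, -0.65 with Dbp and -0.66 with Per3, that of the B cell markers -0.60 with Arntl, 0.52 with Dbp and 0.69 with Per2, and that of the ganglion markers 0.44 with Arntl and -0.54 with Dbp. The mean of the adventitial fibroblast markers had r of -0.28 with Arntl, 0.59 with Dbp, 0.56 with Nr1d1 and 0.51 with Nr1d2. Their part in the relations was not tested.

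**Figure D3:**
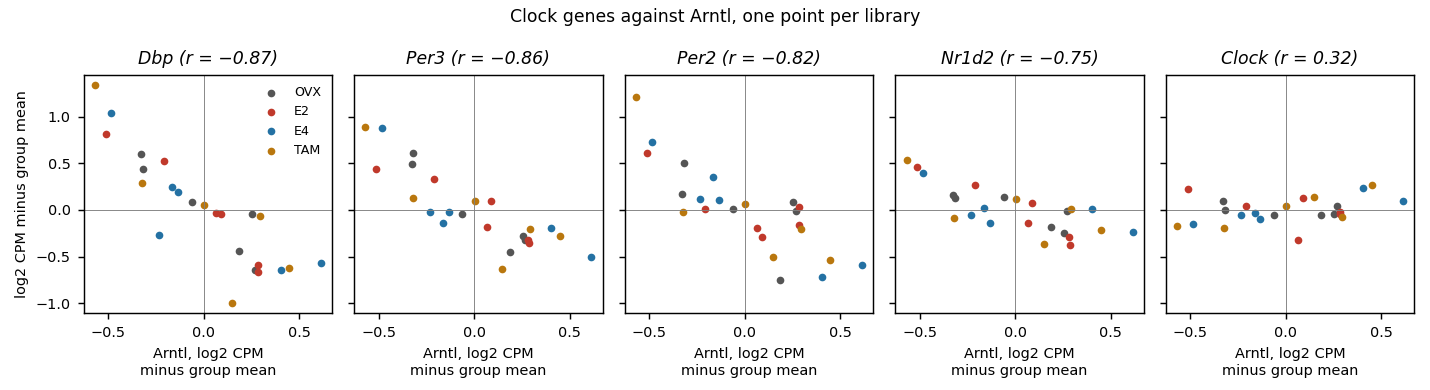
Log2 CPM minus the group mean of 5 clock genes (vertical axis) against that of Arntl (horizontal axis), with 1 point per library coloured by group. Points of Dbp, Per3, Per2 and Nr1d2 run from upper left to lower right (r of -0.87 to -0.75), and those of Clock (r of 0.32) slope upward in E4 and tamoxifen libraries and downward in vehicle and E2 libraries.

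For Nr1d1, r with Arntl was -0.51 (adjusted permutation p = 0.033) and rho was -0.43 (0.069), and without vehicle C5 and tamoxifen C35 r was -0.32 (0.23), so this relation did not pass without those libraries. Cry2 (-0.45, adjusted permutation p = 0.055), Per1 (-0.42, 0.065), Cry1 (0.37, 0.065) and Clock (0.32, 0.17) did not pass. Among all 25032 other tested genes, Dbp had the second lowest r with Arntl, Per3 the third, Per2 the fifth and Nr1d2 rank 11 from the lowest. Within single groups of 6 libraries, r between Arntl and Dbp was -0.91 in vehicle, -0.98 in E2, -0.85 in E4 and -0.84 in tamoxifen libraries. For Per3, Per2 and Nr1d2 it was also negative in each group, from -0.96 to -0.59. For Clock it was -0.44 in vehicle, -0.53 in E2, 0.88 in E4 and 0.79 in tamoxifen libraries, so the r over all 24 libraries does not describe the groups.

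The period genes, Cry2, Nr1d1, Nr1d2 and Dbp moved together, as a description over the same 24 libraries, and Clock and Cry1 did not move with them. Of the 21 pairs among Per1, Per2, Per3, Cry2, Nr1d1, Nr1d2 and Dbp, r was positive in 21, from 0.15 (Per1 and Cry2) to 0.92 (Per3 and Dbp), with a median of 0.66. Cry1 had negative r with each of these 7 genes, from -0.46 with Dbp to -0.16 with Per1. Clock also had negative r with each of the 7, from -0.80 with Cry2 to -0.02 with Nr1d2, and r between Clock and Cry1 was -0.12. These points share library and depth.

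**Figure D4:**
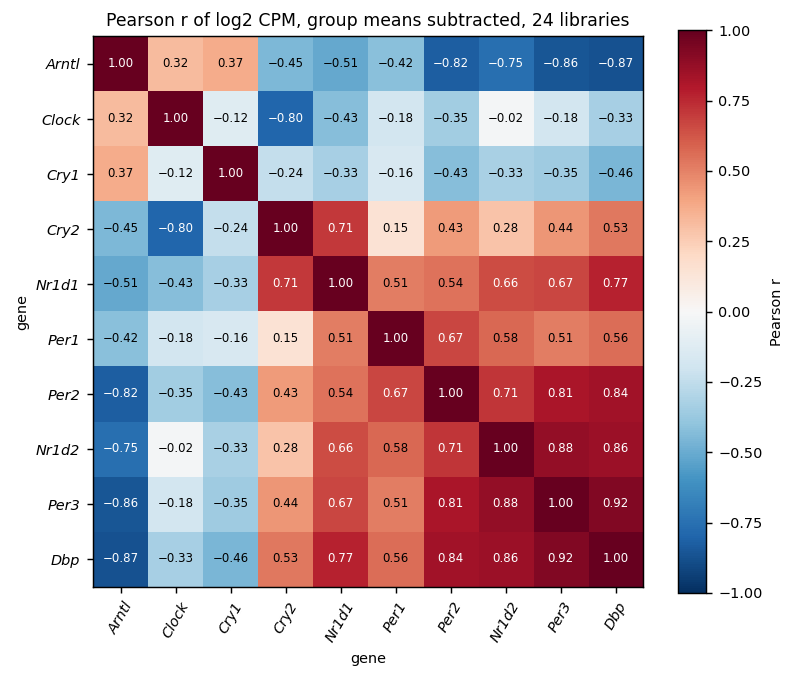
Pearson's r between each pair of clock genes over 24 libraries, with group means subtracted from log2 CPM. The block of period genes, Nr1d1, Nr1d2, Cry2 and Dbp is positive throughout, from 0.15 to 0.92, and the row of Arntl is negative against all of them, down to -0.87.

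In CPM, with group means not subtracted, the libraries lowest and highest in Arntl came from several groups. Tamoxifen C35 had Arntl at 10.2 CPM with Dbp at 123.6, Per3 at 130.1 and Nr1d2 at 195.1 CPM. E4 C16 had Arntl at 10.2 CPM, Dbp at 83.0, Per3 at 109.1 and Nr1d2 at 155.7 CPM, the highest of its group in all 3. Highest in Arntl were E2 C26 and C27, both at 26.6 CPM, with Dbp at 14.7 and 13.9 CPM. With group means subtracted, tamoxifen C35 and E4 C39 lay farthest from the median of Arntl. E4 C39 had Arntl at 21.9 CPM and Dbp at 27.3 CPM.

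Outside the members, the 5 genes most like Arntl among 19518 genes with a mean of at least 1 CPM were Col9a2 (r of 0.81), Cyp2j6 (0.78), Npas2 (0.78), Map4k4 (0.77) and Plk2 (0.76). The 5 most like Dbp were Tef (0.91), Tcap (0.85), Ciart (0.84), Gm49138 (0.81) and Phka2 (0.81). Tef, Npas2 and Ciart are clock genes of the 2 lists, and they were ranked over the same 24 libraries.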

How the data were processed

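RNA was sequenced as paired reads from stranded libraries. Per the submitters' processing notes the authors used bcl2fastq 2.17, Trim Galore, Bowtie2 and featureCounts with mm10 (GRCm38), without roles or further versions, and the strand setting of the counting is not given in the sources used here. The authors deposited estimated counts per gene, not normalized, in 1 table per library. Decimals occurred in 16.0% to 17.3% of the values above 0 of a library, and all values were rounded. Names, lengths and overlaps came from GENCODE M21, which holds 55240 of the 55421 genes.

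Counts were tested in edgeR 4.0.16 (R 4.3.3) with TMM scaling, its default filter, the quasi-likelihood test on all 24 libraries without covariates, and Benjamini-Hochberg adjustment over 25033 genes. Standard errors were derived from the F statistic. The fold and p thresholds are the study's. Log2 CPM used a prior count of 2. Permutation tests were two-sided, permuted libraries within groups 100000 times, and ran in Python 3.11.15 with numpy 2.4.6. The procedure was tested on simulated data.

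The text names all 10 members, the genes of the partner and output lists at an adjusted p under 0.05, and the 5 genes most like Arntl and Dbp. Members and lists were chosen with earlier results of these data known. Alternatives were DESeq2 1.42.0 and its size factors, no filter, fits on fewer groups, fits within or adjusted for the number series, ganglion or B cell markers as a covariate, other thresholds, and leaving out 1 or 2 libraries.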

Additional observations from a re-analysis of the deposited data

Results flagged for a closer look

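In 14 of 68 groups of 6 libraries examined, 1 library lay apart from the other 5 by Dixon's criterion, where chance gives about 1 in 20 groups, or 3.4. Of the 40 groups of a clock gene, 8 were among them. Tamoxifen C35 stood apart 4 times, with Per1 at 195.7 CPM (others 77.0 to 108.2), Per2 at 81.38 CPM (24.4 to 36.7), Per3 at 130.1 CPM (45.5 to 76.9) and Dbp at 123.6 CPM (24.6 to 60.1). In E4 C16, Per3 was 109.1 CPM (others 41.8 to 58.4) and Nr1d2 was 155.7 CPM (100.7 to 120.8). Per1 was 62.7 CPM in E4 C38 (others 90.9 to 104.6), and Per2 was 37.17 CPM in E2 C8 (19.9 to 24.99).

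Sympathetic ganglion markers had a mean log2 CPM of 1.528 in vehicle C5 (others 7.51 to 8.65) and of 4.286 in tamoxifen C35 (8.56 to 9.07). The mean of the partners and regulators was 4.211 in vehicle C5 (others 4.51 to 4.66) and 4.373 in tamoxifen C35 (4.63 to 4.70), where Rorb, a gene of that list, was at 0.483 and 0.789 CPM. Thyroid markers had a mean of 2.411 in E4 C38 (others 0.47 to 1.18), and the total count of that library was 24647246 (others 37505055 to 44224858).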

How the results depend on the processing

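The number of members past the study's threshold changed as follows. With no fold threshold it was 1 in E4 against vehicle, 4 in E4 against E2 and 3 in tamoxifen against E2. Of all tested genes 5514, 3134 and 1612 passed in the same order. With ganglion markers or with B cell markers as a covariate the number past the study's threshold was 1 in E4 against E2. With no fold threshold, 4150 and 723 of all tested genes passed in these fits. In tamoxifen against E2 the number past the study's threshold was 0 at an adjusted p under 0.01, with only the 2 groups compared, in the first number series, in the second, and without vehicle C5 and tamoxifen C35, and leaving out 1 library gave 0 to 1. At an adjusted p under 0.05 with no fold threshold, 1172 of all tested genes passed with only the 2 groups compared, against 1612. The count was 1164 in the first series, 115 in the second and 3335 without both libraries. Members that differed among the 4 groups numbered 3 to 6 when 1 library was left out. Members at an adjusted p under 0.05 ranged from 0 to 6 in E4 against E2, 0 to 7 in tamoxifen against E2, 0 to 3 in E4 against vehicle and 0 to 3 in tamoxifen against vehicle, with 0 in the second number series in all 4, and ganglion markers as a covariate gave the upper value of each range, which other settings also reached in E4 against E2. With that covariate the genes called in all changed from 3134 to 4150, 1612 to 3361, 5514 to 4569 and 553 to 1466 in the same order, and in the second series they were 0, 115, 5 and 0. With B cell markers as a covariate 5 members and 723 genes passed in E4 against E2 and 6 members and 1233 genes in tamoxifen against E2. In E4 against vehicle 1 member and 102 genes passed with it, and in tamoxifen against vehicle 0 members and 15 genes. Of 897 alternative fold changes of members, 1 reversed, Per3 in E4 against vehicle with B cell markers as a covariate (0.18). The r of Arntl with Per2 was -0.92 (adjusted permutation p = 0.097) in the second series, and that with Nr1d1 was -0.61 (0.078) in the first series and -0.32 without vehicle C5 and tamoxifen C35. With Cry2 it passed at -0.54 with group by series means subtracted, -0.49 with DESeq2 size factors and -0.76 in the second series. The causes were not tested. No paired analysis was possible because the groups share no number in the library titles. The second series holds 2 vehicle libraries and 3 of each treatment. With 3 libraries a group in both series, the first had 3193 genes at an adjusted p under 0.05 in E4 against E2 and 1164 in tamoxifen against E2. No gene had a treatment effect that differed between series at an adjusted p under 0.05 with edgeR (0 genes, with 859, 1429 and 2704 at an unadjusted p under 0.05 for E2, E4 and tamoxifen).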

Other observations

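Outside the members, the genes with the most negative r with Arntl, a ranking added after the values were seen, were Tef (-0.91), Ciart (-0.82), Gm35986 (-0.81), Phka2 (-0.80) and Elovl6 (-0.80), over the same 24 libraries with group means subtracted. They were ranked among 19518 genes with a mean of at least 1 CPM. Tef, a D-box factor like Dbp, and Ciart, a clock repressor, are in the lists of clock genes, and Elovl6 encodes a fatty acid elongase. Tef averaged 290.3 ± 28.3 CPM (SD, n = 6) in vehicle, 226.6 ± 21.7 in E2, 279.1 ± 49.2 in E4 and 303.4 ± 60.2 in tamoxifen libraries.

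Immediate early genes, which include Fos and Egr1, had 0 of 10 genes past an adjusted p of 0.05 in E2 against vehicle with edgeR (4 at an unadjusted p under 0.05), where 4.16% and 16.05% of all tested genes were. In E4 against vehicle 3 of 10 were lower, where 12.5% of all tested genes were.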
